A study of Mus musculus with 18 samples.

Results

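The genes examined were those of the proteins of the cytosolic ribosome in mouse small intestinal organoids treated with adrenergic agonists. A gene was taken when it was protein-coding and its symbol was Rpl or Rps followed by digits and at most 1 of the letters a, l and x, or was Rplp0, Rplp1, Rplp2 or Rpsa. Of the 55487 genes counted, 80 met this rule, 49 of the large and 31 of the small subunit, and 3 further symbols of the same form were not protein-coding. Of these 80 genes, 76 had enough counts to be tested (45 large, 31 small). Rpl10l and Rpl39l had 0 counts in all 18 samples, Rpl3l had 0 to 4 and Rpl23a 2 to 12, and these 4 were not tested.

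The organoids were grown in Matrigel from crypts of female wild-type C57BL/6 mice and, after 4 passages, treated for 4 days. The 4 groups were HCl vehicle (4 samples, mice 1 to 4), norepinephrine at 1 µM (5 samples, mice 1 to 5), DMSO vehicle (4 samples, mice 1 to 4) and UK14,304 at 1 µM (5 samples, mice 1 to 5). Norepinephrine stimulates α- and β-adrenergic receptors and was compared with HCl vehicle, and UK14,304, which stimulates α2-adrenergic receptors, was compared with DMSO vehicle. All groups carried the same wild-type genotype. The labels number the replicates m1 to m5, and each number was taken as 1 mouse. Each mouse gave 1 sample per group, apart from mouse 5, which had no vehicle sample.

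A ribosome is built from ribosomal RNA and about one protein of each kind, so that the proteins are needed in near equal numbers. Their genes are transcribed strongly in all dividing cells, and their mRNAs begin with a run of pyrimidines, the 5′ TOP tract, through which growth signals acting on mTOR and Larp1 adjust translation. The intestinal crypt is among the fastest renewing tissues, and its stem and progenitor cells make ribosomes at a high rate. Ribosomal protein mRNAs are short and have many processed pseudogenes. A read that mapped to several places was not counted here, so the count of a gene with exact copies elsewhere covers only part of its mRNA.

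The start sites of the members were searched for such tracts in the RefSeq promoters of GRCm38.p6 (250 bases before to 50 after each annotated start), which held 72 promoters of 60 members. A tract was a C followed by at least 4 further C or T on the gene's strand, starting within 30 bases of the annotated start. Of the 72 member promoters 63 (87.5%) held a tract of 5 or more bases, against 61.0% of all 32851 promoters, and 41 (56.9%) held one of 8 or more, against 19.5%. The core CCGGAAG, bound by ETS factors, was found on either strand of 26 member promoters (36.1%) and of 8.86% of all promoters. AAGATGGC, bound by YY1, was found in 7 (9.72%) against 2.75%, and TATAAA, the TATA box, in 6 (8.33%) against 13.6%. Matches of CCGGAAG and AAGATGGC may overlap, and a match is a description of the letters and not of a bound site.

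Windows of 30 bases around the tract are shown for 6 members, because Rps12 and Rps10 were the genes that passed a test, Rpl4 and Rplp0 stood for the strongly counted members, and Rps27 and Rpl10l for those with few counts or none. Each is written 5′ to 3′ on the strand of the gene with the tract in capitals. They lie in GRCm38.p6 at chr10:23787180-23787209 (minus) for Rps12, chr17:27635226-27635255 (minus) for Rps10, chr9:64173405-64173434 (plus) for Rpl4, chr5:115559472-115559501 (plus) for Rplp0, chr3:90213629-90213658 (minus) for Rps27 and chr12:66284390-66284419 (minus) for Rpl10l.
Rps12: accgccggCCTTTTCCCCTgccgccgccga
Rps10: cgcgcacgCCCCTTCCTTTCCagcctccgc
Rpl4: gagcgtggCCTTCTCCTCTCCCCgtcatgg
Rplp0: gcctggttCTCCTataaaaggcacacgcgg
Rps27: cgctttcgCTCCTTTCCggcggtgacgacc
Rpl10l: aaatttggCCTCCattttgcggctggcggt
The tracts of Rps12 and Rps10, which passed in opposite directions below, were both long, with 11 and 13 bases. Rpl4, with the most counts, had a tract of 15 bases, whereas Rplp0, also strongly counted, had one of 5. Rpl10l, which was not counted at all, had one of 5. Among members not shown, Rpl39l, also at 0 counts, had a tract of 9, and the strongly counted Rps3 had one of 5. Relative to the annotated start, the tracts began at 8 (Rps12), −3 (Rps10), 26 (Rpl4), 13 (Rplp0), −2 (Rps27) and −10 (Rpl10l). In the Rplp0 window the letters TATAAA begin at the last base of the tract. Whether these tracts begin the mRNA was not tested, so their lengths are not lengths of 5′ TOP tracts.

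Between 21.87 and 27.85 M reads were counted in each sample. Epithelial genes (Epcam, Cdh1, Krt8, Krt18, Vil1) summed to 5457 to 6046 CPM (counts scaled to library size with TMM factors) in every sample, fibroblast genes (Col1a1, Col1a2, Col3a1, Pdgfra, Dcn) to at most 0.346 with Dcn at 0 throughout, and blood cell genes (Ptprc, Cd3e, Cd79a, Cd68, Hbb-bs) to 1.89 to 2.97. The organoids therefore carried the markers of their labelled tissue. An rRNA-derived gene, CT010467.1, took over 1% of the counts in 7 samples, namely HCl vehicle mouse 4, DMSO vehicle mice 1, 2 and 3, norepinephrine mice 4 and 5, and UK14,304 mouse 1. In bulk samples fewer cells of a type and less RNA per cell cannot be told apart.

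Counts differed between members over several orders of magnitude. The mean count over the 18 samples was 46952 for Rpl4, which lines the exit tunnel of the large subunit, and the median over the 80 members was 1143. There were 43 members with a mean of at least 1000 counts, 21 between 100 and 1000 and 16 under 100. Rpl4 alone held 14.8% of all counts on members, the top 5 held 45.3% and the top 10 held 62.2%. The level per length (CPM per kilobase of merged exons, mean ± SD over the 8 vehicle samples) was highest for Rpl4, at 961 ± 26.9, followed by Rpl8 at 853 ± 18.2. Rplp1, a protein of the stalk that recruits translation factors, was next at 791 ± 25.99, then Rps15 of the small subunit at 642 ± 18.9 and Rplp0, the base of the stalk, at 506 ± 12.7. Neighbours in this order lay further apart than the sum of their SDs, but the order depended on the length used. Per kilobase of transcript, Rpl8 at 1362 lay above Rpl4 at 1254, and Rps3 at 712 lay above Rplp0 at 618. At the low end, levels were 0.848 ± 0.131 for Rps23, a protein of the decoding centre, 0.679 ± 0.148 for Rps6, the substrate of S6 kinase, and 0.314 ± 0.131 for Rpl24. Rpl23a stood at 0.216 ± 0.0977 and Rpl3l, the muscle paralogue of Rpl3, at 0.0304 ± 0.0364, and here the neighbours Rpl24 and Rpl23a, and Rps6 and Rps23, overlapped within their SDs.

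These levels cannot be read as amounts of mRNA, because the members differed in how much of their sequence occurs elsewhere. In the median member, 50.05% of all 50-base windows of the transcript, the length of the reads, were found letter for letter in a transcript of another gene (range 0% to 98.6%, over all 80 members), and 40 members had over 50% of windows copied. The median member shared a window with 10 other genes. The 20 members with under 33% of windows copied had a median of 3368 counts, the 32 with 33% to 66% had 1761, and the 28 above that had 291. Over the 76 tested members the level per kilobase of transcript and the percentage of windows without a copy had a Spearman correlation of 0.48, given as a description, since members share the libraries. The 6 tested members with at least 90% of windows without a copy, among them Rpl22, Rpl8, Rps15a, Rps20 and Rps3, had a median of 12903 counts, against 1106 over the other 70. By contrast, Rps27, with 98.6% of windows copied, had 26 to 49 counts per sample, and Rps6, with 84.6%, had 15 to 34. A second limit was overlap: in 7 members over 50% of the transcript lay under exons of another gene, where the counting dropped reads. Merged exons also held sequence outside coding transcripts, and in the median member coding transcripts covered 60.0% of the merged length, which lowers a level per length.

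**Figure D1:**
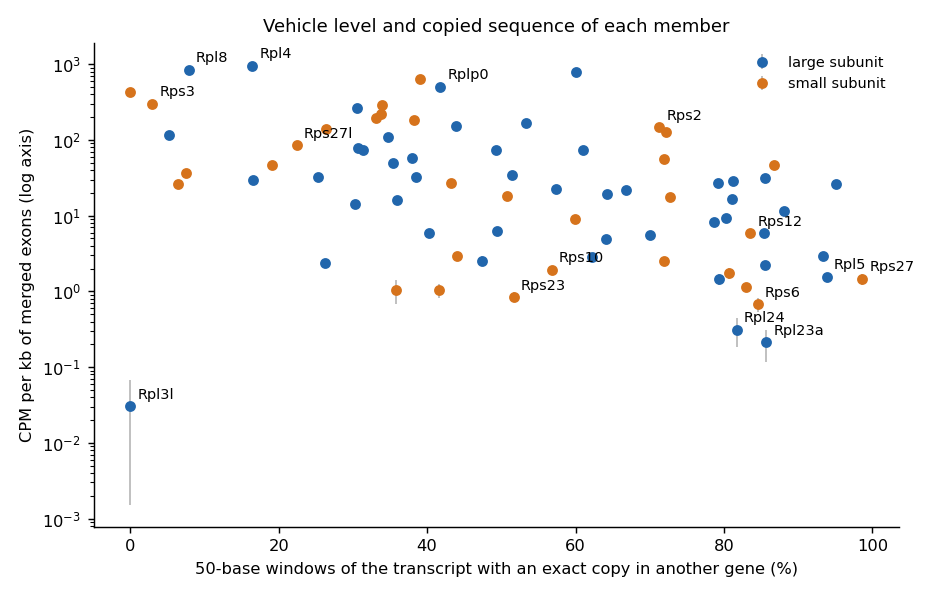
Level of each member in vehicle samples (CPM per kilobase of merged exons, mean of 8 samples with SD as bars, log axis) against the percentage of its 50-base windows that occur exactly in another gene's transcript. Rpl4 and Rpl8 lie at the top left with few copies and Rps27 at the far right with 98.6% of windows copied, whereas Rpl3l has 0% copied and a low level. Rpl10l and Rpl39l, at 0 counts, are not drawn, and the lower bar of Rpl3l is cut off because its SD exceeds its mean.

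Paralogue pairs are ribosomal protein genes of nearly the same protein, often used in different tissues. Rpl3, close to the catalytic centre of the large subunit, had 2017 to 2836 counts, and its muscle paralogue Rpl3l had 0 in all 4 HCl vehicle samples, 0 to 2 with norepinephrine, 1 to 3 with DMSO vehicle and 0 to 4 with UK14,304. Rpl39 had 854 to 1238 counts and Rpl10 had 246 to 383, and their paralogues Rpl39l and Rpl10l, both known from testis, had 0 in every sample. A count of 0 in the smallest library still allows up to 3 counts. The pair Rps27 and Rps27l ran the other way in counts. Rps27l, which p53 can induce, had 1483 to 2022 counts, while Rps27 had 26 to 49. The first 120 bases of both coding sequences are shown, from GENCODE M21 transcripts, because they make clear how reads of this pair are told apart, with the differing bases in capitals.
Rps27: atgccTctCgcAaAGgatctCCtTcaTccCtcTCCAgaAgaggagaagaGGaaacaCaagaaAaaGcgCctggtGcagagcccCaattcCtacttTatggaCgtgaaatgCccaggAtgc
Rps27l: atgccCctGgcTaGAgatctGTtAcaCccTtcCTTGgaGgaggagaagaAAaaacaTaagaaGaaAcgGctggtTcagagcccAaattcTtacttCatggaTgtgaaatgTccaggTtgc
The coding sequences are each 252 bases long, differ at 60 (76.2% identity) and share 0 windows of 50 bases, so that no exact read of one matches the other. The copies that cover Rps27 lie in 9 other genes and hold 98.6% of its windows, and 22.4% of the windows of Rps27l were copied. The counts of this pair therefore do not show which gene was expressed more. Rpl39 and Rpl39l differ at 23 of 153 coding bases and Rpl10 and Rpl10l at 98 of 642, also with 0 shared windows.

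Precision followed depth. The SD of log2 CPM between samples of one group had a median of 0.081 over members with a mean of at least 1000 counts and of 0.17 over those with fewer, and ranged from 0.041 to 0.45 over the tested members. Its Spearman correlation with the mean count over the 76 members was −0.78, given as a description.

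Whether the agonists changed the total expression of the ribosomal protein genes was asked first of their summed share of all counts. The share was 1.38%, 1.28%, 1.36% and 1.28% in HCl vehicle samples of mice 1 to 4, and 1.29%, 1.22%, 1.26%, 1.37% and 1.18% in norepinephrine samples of mice 1 to 5. These groups overlapped, with means of 1.33% ± 0.0536 (SD, n = 4) and 1.26% ± 0.0720 (SD, n = 5). The share was 1.31%, 1.29%, 1.31% and 1.36% in DMSO vehicle samples and 1.31%, 1.23%, 1.33%, 1.16% and 1.21% in UK14,304 samples. These groups overlapped too, with means of 1.32% ± 0.0298 (SD, n = 4) and 1.25% ± 0.0702 (SD, n = 5). The difference was −0.0634 percentage points with norepinephrine (exact two-sided permutation test over 126 splits, p = 0.167) and −0.0707 with UK14,304 (exact permutation, p = 0.103), both with p = 0.167 when adjusted over the 2 comparisons. Within mice, the mean difference was −0.0426 ± 0.0894 (SD, n = 4) with norepinephrine and −0.0606 ± 0.0963 (SD, n = 4) with UK14,304, and 3 of 4 mice were lower with each agonist (exact sign-flip permutation, p = 0.375 in both, where 4 mice allow no p under 0.125). All counts here include the rRNA-derived gene, whose share differed between samples. Scaled with TMM factors, the summed CPM was 13350, 13318, 13032 and 13549 in DMSO vehicle samples of mice 1 to 4. It was 13200, 12289, 12926 and 11672 in their UK14,304 samples, so all 4 mice were lower. With HCl vehicle it was 13889, 12956, 13233 and 13056, and with norepinephrine 12730, 12233, 12284 and 13795, so mouse 4 was higher. These sums were not tested. The ratio of large to small subunit counts had means of 1.29 in HCl vehicle, 1.30 in norepinephrine, 1.28 in DMSO vehicle and 1.31 in UK14,304 samples.

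**Figure D2:**
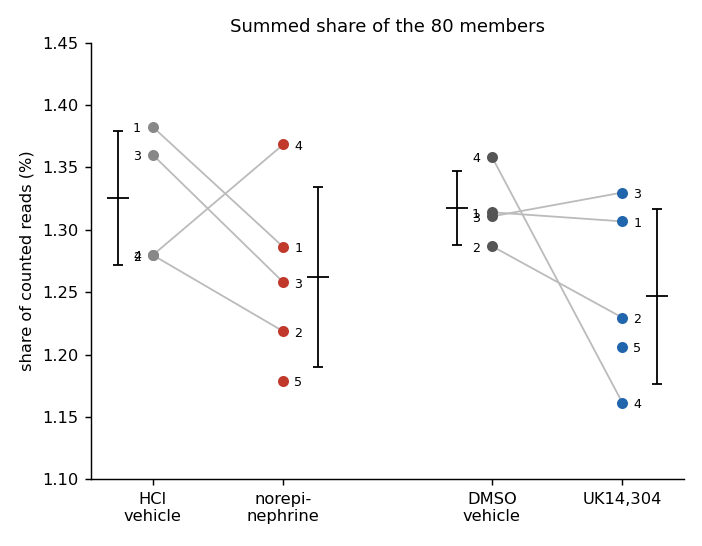
Summed share of counted reads on the 80 ribosomal protein genes (%, on an axis that does not start at 0) in every sample, numbered by mouse, with grey lines joining samples of one mouse and black bars giving mean ± SD. Agonist and vehicle samples overlap in both comparisons, and mouse 4 rises from 1.28% to 1.37% with norepinephrine and drops from 1.36% to 1.16% with UK14,304.

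Of the 76 tested members, 0 passed when norepinephrine was set against HCl vehicle (a Benjamini-Hochberg adjusted p under 0.05 over 15247 genes in the quasi-likelihood test of edgeR), as did 0% of all genes, and the lowest adjusted p of a member was 0.713. With the mouse as a block 0 members passed, against 0.105% of all genes, and with DESeq2 also 0. An unadjusted p under 0.05 was reached by 13 members (17.1%), against 6.18% of all genes. The log2 fold change was negative in 48 members (63.2%) against 52.4% of all genes, with a median of −0.06 against −0.01 over all genes, and 3 members (3.95%) were lower in all 4 mice against 8.26% of all genes. Estimates stayed within 0.5 of 0, including 2 standard errors on either side, for 69 of the 76 members and for all 43 with at least 1000 counts. The other 7 reached further and were members with fewer counts.

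With UK14,304 against DMSO vehicle, 1 member, Rps12, passed, and it rose, where 0.0394% of all genes passed in either direction. Blocking by mouse gave 2 members, Rps12 higher and Rps10 lower, against 1.22% of all genes. An unadjusted p under 0.05 was reached by 22 members (28.9%), against 11.2% of all genes, and 20 members (26.3%) were lower in all 4 mice, against 15.5%. The log2 fold change was negative in 56 members (73.7%) against 51.3% of all genes, with a median of −0.09 against 0.00 over all genes. Estimates stayed within 0.5 of 0, including 2 standard errors, for 63 of 76 members and for all 43 with at least 1000 counts. The median was −0.08 over large and −0.11 over small subunit genes, and −0.05 and −0.08 with norepinephrine. The 43 members with at least 1000 counts had medians of −0.07 with norepinephrine (33 lower) and −0.11 with UK14,304 (36 lower), and the 6 with at least 90% of windows without a copy had −0.07 and −0.09. The difference between the agonist effects passed in 0 members, and in 0% of all genes, without the block, and in 0 members and 0% of all genes with it, and in 0 members by DESeq2. An unadjusted p under 0.05 for this difference was reached by 2 members (2.63%) without the block, against 1.51% of all genes, and by 3 (3.95%) with it, against 2.66%.

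**Figure D3:**
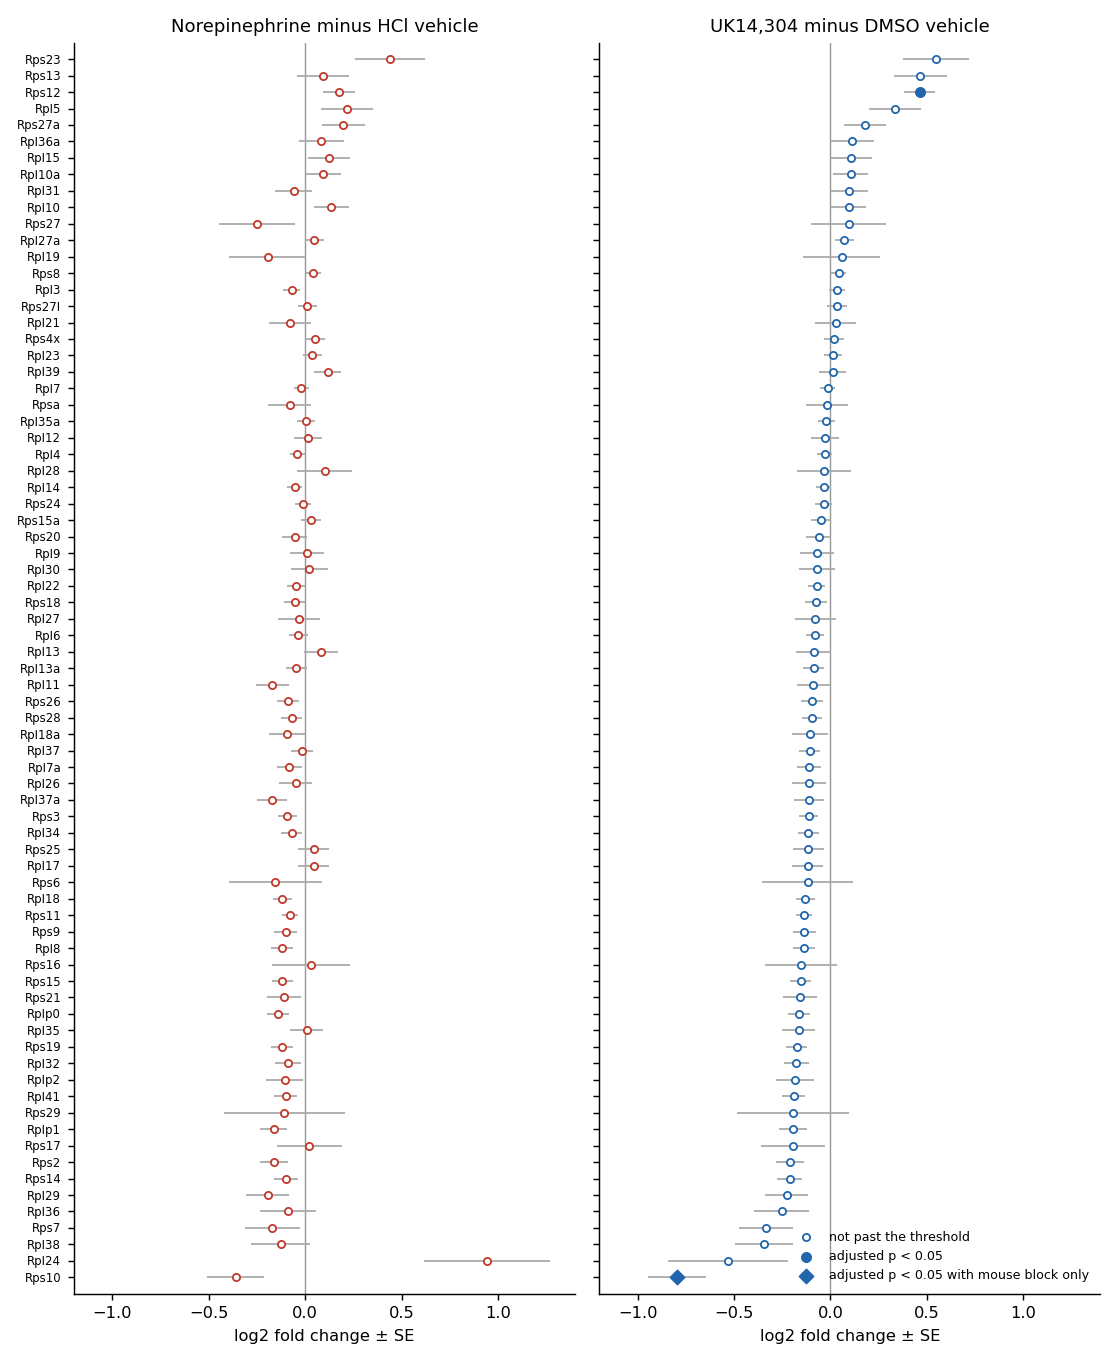
Log2 fold change ± SE of 75 of the 76 tested members with norepinephrine against HCl vehicle (left) and UK14,304 against DMSO vehicle (right), ordered by the UK14,304 value. Most points lie just below 0 on the right, Rps12 is the filled point that passed without the block and Rps10, at −0.79, is the diamond that passed with the mouse as a block.

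Rps12 (ENSMUSG00000061983, chr10:23785183-23787275 on GRCm38, minus strand), a small subunit protein, was the only member that passed with UK14,304 without the block, and it rose. Its values were 12.1, 11.3, 12.5 and 12.5 CPM in DMSO vehicle samples of mice 1 to 4 and 16.2, 14.7, 19.0, 15.6 and 17.8 CPM in UK14,304 samples of mice 1 to 5. Every UK14,304 sample lay above every DMSO vehicle sample, and all 4 mice with both were higher. The log2 fold change was 0.46 ± 0.081 (SE) with an adjusted p of 0.0399 by edgeR, and 0.43 ± 0.074 with an adjusted p of 0.00487 with the mouse as a block. HCl vehicle samples had 11.7, 12.0, 10.6 and 11.9 CPM and norepinephrine samples 13.3, 11.6, 14.2, 12.1 and 14.0 CPM, which overlapped, and the log2 fold change was 0.18 ± 0.082 (adjusted p by edgeR 0.713). The effects of the agonists differed by 0.29 on the log2 scale, with an unadjusted edgeR p of 0.0217 and an adjusted p near 1. The gene had 244 to 460 counts per sample, 83.6% of its windows were copied in 25 other genes, and 31.8% of its merged exons lay in coding transcripts, and reads from the copied part were not counted. Snora33 and Snord100, small nucleolar RNA genes that overlap its merged exons, had 0 counts in every sample. Reads that overlapped several genes were dropped, so this 0 does not show whether they were transcribed.
The call for Rps12 without the block was lost (adjusted p by edgeR 0.05002 to 0.169) on leaving out any one of HCl vehicle mice 1, 2 or 4, DMSO vehicle mice 1, 2, 3 or 4, norepinephrine mouse 1 or UK14,304 mice 1, 3 or 5, and when only the UK14,304 and DMSO vehicle samples were used (0.291). The log2 fold change stayed between 0.41 and 0.51 when samples were left out. With the block, leaving out mouse 1, 2 or 3 gave adjusted p-values by edgeR of 0.0550, 0.0568 and 0.0581, and leaving out mouse 4 or 5 gave 0.000442 and 0.00845.

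Rps10 (ENSMUSG00000052146, chr17:27630418-27636669 on GRCm38, minus strand), a small subunit protein whose human gene is mutated in some cases of Diamond-Blackfan anaemia, moved in the opposite direction. Its values were 4.83, 4.46, 4.36 and 4.36 CPM in DMSO vehicle samples and 3.04, 1.76, 2.69, 2.12 and 3.41 CPM in UK14,304 samples. The groups did not overlap, and all 4 mice were lower. The log2 fold change was −0.79 ± 0.15, which missed the threshold by edgeR (adjusted p 0.0592), and it passed with the mouse as a block at −0.84 ± 0.15 (adjusted p 0.00653) and with DESeq2 (adjusted p 0.000697). HCl vehicle samples had 4.04, 5.03, 4.30 and 4.55 CPM and norepinephrine samples 3.45, 3.03, 4.16, 3.47 and 3.32 CPM, so that only mouse 3 with norepinephrine lay within the vehicle range. All 4 mice were lower there too, and the log2 fold change was −0.36 ± 0.15 (adjusted p by edgeR 0.713). With the block, the call with UK14,304 was lost without mouse 2 (adjusted p by edgeR 0.0903) and without mouse 3 (0.0693). The gene had only 49 to 125 counts per sample, and 56.8% of its windows were copied. Of its transcript 63.6% lay under exons of the read-through gene RPS10-NUDT3 and of Gm15420, where reads were dropped. RPS10-NUDT3 had 0 counts in every sample, but reads on exons it shares with Rps10 were dropped. Its 0 therefore does not show whether the read-through gene was transcribed. The neighbour Nudt3, with a mean of 1232 counts, had a log2 fold change of −0.08 with UK14,304 (adjusted p by edgeR 0.508).

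**Figure D4:**
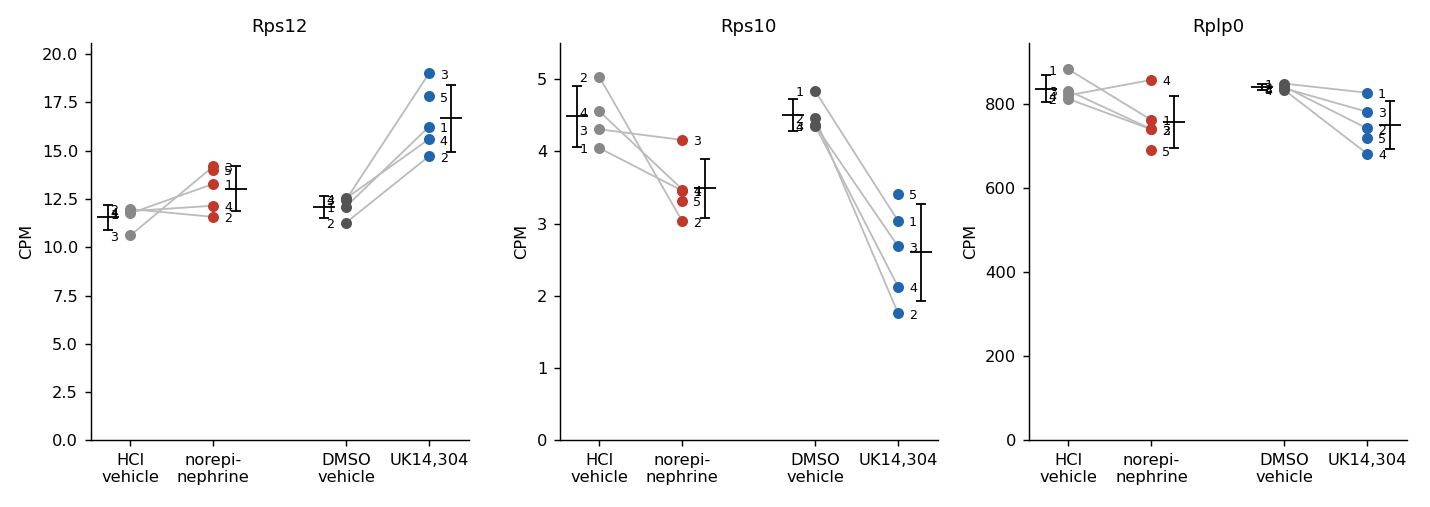
CPM of Rps12, Rps10 and Rplp0 in every sample, numbered by mouse, with grey lines joining samples of one mouse and black bars giving mean ± SD. UK14,304 samples of Rps12 (14.7 to 19.0) lie above and those of Rps10 (1.76 to 3.41) and Rplp0 (682.6 to 827.9) lie below all DMSO vehicle samples.

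The strongly counted members differed less, and none passed without the block. Rplp0, often used as a reference gene in quantitative PCR, had 849.8, 842.5, 838.7 and 834.8 CPM in DMSO vehicle samples and 827.9, 742.8, 782.5, 682.6 and 720.4 CPM in UK14,304 samples, without overlap. Its log2 fold change was −0.16 ± 0.057 (adjusted p by edgeR 0.374, and 0.207 with the block). HCl vehicle samples had 883.5, 813.2, 832.9 and 822.0 CPM and norepinephrine samples 763.0, 740.6, 741.0, 858.5 and 691.1 CPM, where mouse 4 lay within the vehicle range and the other 4 mice below it, with a log2 fold change of −0.14 ± 0.057 (adjusted p by edgeR 0.713). Its partner in the stalk, Rplp1, had 401.3, 397.6, 401.9 and 390.4 CPM in DMSO vehicle and 394.4, 344.2, 352.8, 337.6 and 308.3 CPM in UK14,304 samples, which overlapped through mouse 1, with a log2 fold change of −0.20 ± 0.071 (adjusted p by edgeR 0.385). Rpl8 (−0.14 ± 0.056) and Rps15 (−0.15 ± 0.054) were likewise lower in all 4 mice with UK14,304 without passing. Rpl4, the member with the most counts, had a log2 fold change of −0.03 ± 0.039 with UK14,304 and −0.04 ± 0.039 with norepinephrine.

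**Figure D5:**
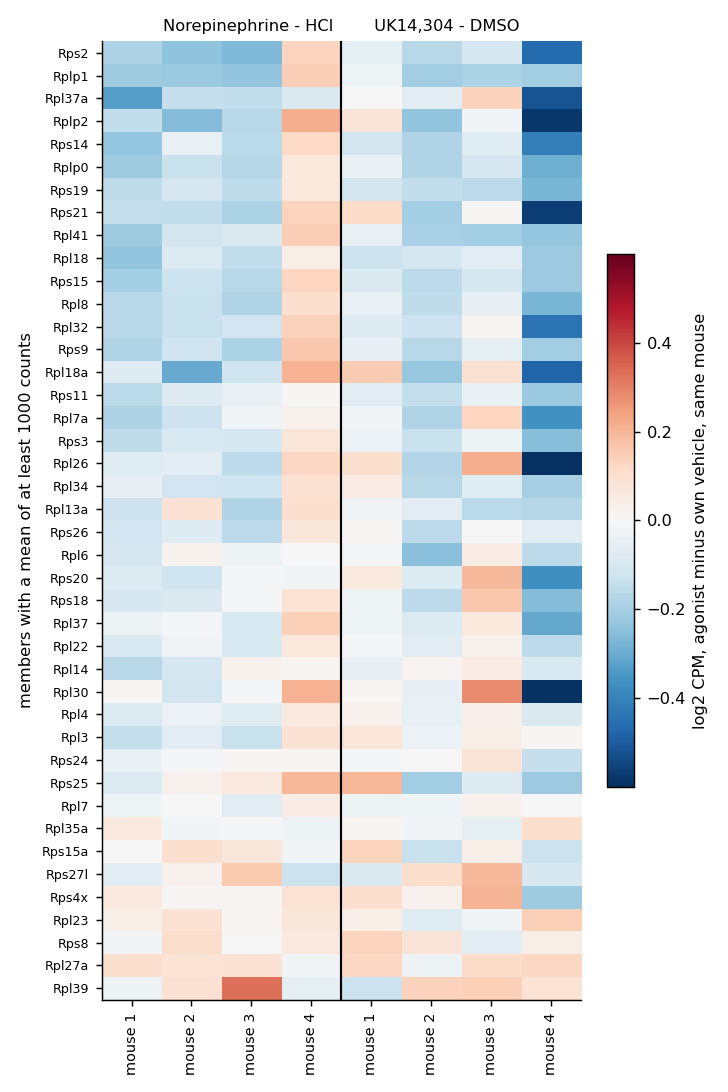
Within-mouse difference in log2 CPM (agonist minus own vehicle, red higher and blue lower) for 42 of the 43 members with a mean of at least 1000 counts, with norepinephrine on the left and UK14,304 on the right. With norepinephrine mice 1 to 3 are mostly blue and mouse 4 mostly red, and with UK14,304 mouse 4 holds the deepest blue.

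The mice did not move together. With norepinephrine the median within-mouse difference over the 76 members was −0.08, −0.06 and −0.07 on the log2 scale in mice 1, 2 and 3, and 0.08 in mouse 4, with 51, 46, 51 and 19 members lower. With UK14,304 it was −0.02, −0.10, 0.03 and −0.22 in mice 1 to 4, with 45, 58, 35 and 59 members lower. Mouse 4 was thus highest with norepinephrine and lowest with UK14,304. Its HCl vehicle and norepinephrine samples were both among the 7 with over 1% of counts on CT010467.1, and its DMSO vehicle and UK14,304 samples were not. In a fit with a term for this split and the block, 0 members passed with norepinephrine and 2 with UK14,304, as with the block alone. The share over all genes in this fit is not given.

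Leaving out all samples of mouse 4 changed the number of calls with the block most. Mouse 4 was the mouse whose members lay mostly higher with norepinephrine, with a median difference of 0.08. Its removal thus favoured lower calls with norepinephrine, and pairs with a vehicle remained only in mice 1, 2 and 3. With norepinephrine 20 of 76 members then passed (26.3%) against 15.1% of all genes, 19 of them lower, of which 17 had a mean of at least 1000 counts. The calls over all genes were not split by direction. Sizes of the member calls ranged from 0.12 to 0.29 on the log2 scale. Rps2, a small subunit protein with a log2 fold change of −0.22 ± 0.035, had the lowest adjusted p by edgeR of 0.000192, followed by Rplp1 at −0.21 and Rplp0 at −0.17, and Rpl15 at 0.24 was the member that was higher. With UK14,304 9 members passed (11.8%) against 3.83% of all genes. These were Rps12, higher, and 8 lower, among them Rps10, Rplp1, Rpl41, Rps15, Rps19, Rplp0 and Rps2. The median over members with UK14,304 was −0.03 without mouse 4 and −0.09 with it, both with the block. Leaving out mouse 1, 2, 3 or 5 in its place gave 0 members with norepinephrine and 0 to 2 with UK14,304. For these fits the share over all genes is not given.

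Other members with large estimates had few counts, and none of them passed. Rps23 had 32, 30, 30 and 24 counts in DMSO vehicle and 45, 51, 34, 52 and 36 in UK14,304 samples, without overlap, with a log2 fold change of 0.55 ± 0.17 (adjusted p by edgeR 0.346). With norepinephrine it was 0.44 ± 0.18, and all 4 mice were higher with each agonist. Rps13 (0.47 ± 0.14) and Rpl5 (0.33 ± 0.13), which binds the smallest rRNA of the large subunit together with Rpl11, were next with UK14,304, with adjusted p-values by edgeR of 0.310 and 0.398. The estimates of Rpl24 had opposite signs, 0.94 ± 0.33 with norepinephrine and −0.53 ± 0.31 with UK14,304, on 4 to 15 counts per sample. Its difference between agonists was −1.47 (unadjusted edgeR p 0.00385, adjusted p near 1), and 71.5% of its transcript lay under another gene's exons. Rpl38 had −0.35 ± 0.15 with UK14,304 (adjusted p by edgeR 0.412). After Rps10, the lowest estimates with norepinephrine were −0.25 ± 0.20 for Rps27 and −0.20 ± 0.11 for Rpl29. Rps6, the phosphorylated protein by which mTOR activity is often read, had −0.16 ± 0.24 with norepinephrine and −0.12 ± 0.24 with UK14,304, and Rpsa, the laminin receptor, had −0.08 ± 0.11 and −0.02 ± 0.11.

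Ribosomal protein genes whose symbols do not meet the rule gave 0 calls among 7 tested by edgeR, without or with the block, and 0 by DESeq2. Of the 7, 1 gene (14.3%) with norepinephrine and 2 (28.6%) with UK14,304 had an unadjusted edgeR p under 0.05. Over all genes these shares were 6.18% and 11.2%. Rack1, a scaffold on the small subunit with a mean of 35545 counts, had 1532, 1523, 1493 and 1536 CPM in DMSO vehicle and 1506, 1349, 1430, 1195 and 1334 CPM in UK14,304 samples. All 4 mice were lower, with a log2 fold change of −0.16 (adjusted p by edgeR 0.398), and it was −0.14 with norepinephrine. Fau, Rps3a1, Rpl22l1, Rpl7l1 and Rpl36al had log2 fold changes between −0.16 and 0.06 with UK14,304.

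The other lists of the same machinery also held 0 calls by edgeR in either comparison, without or with the block, and 0 by DESeq2. Genes at an unadjusted p under 0.05 are given in parentheses, for norepinephrine and then UK14,304, where all genes had 6.18% and 11.2%. Mitochondrial ribosomal proteins, which build the separate ribosome of mitochondria, had 77 of 78 genes tested and medians of −0.02 with norepinephrine and −0.03 with UK14,304 (5 and 10 genes, 6.49% and 13.0%). The 34 genes of ribosome biogenesis, such as nucleolin (Ncl) and RNA polymerase I subunits, had medians of 0.00 and 0.03 (2 and 3, 5.88% and 8.82%). The 20 translation factors and other genes with a 5′ TOP tract had −0.03 in both comparisons (4 and 3, 20% and 15%). The 15 genes that control TOP mRNAs and S6, such as Larp1 and Mtor, had −0.01 and 0.00 (0 and 1, 0% and 6.67%). The 7 tested of 8 small nucleolar RNA host genes had 0.06 and 0.05 (0 and 2, 0% and 28.6%).

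Marker genes of the cell types in the organoids moved as follows beside these values. The 5 Paneth cell genes (Lyz1, Defa17, Defa22, Defa24, Ang4) all had negative log2 fold changes with both agonists, with medians of −0.30 and −0.28. When mouse was a block, 2 of them passed with norepinephrine and 3 with UK14,304, where 0.105% and 1.22% of all genes passed. Their summed level was 2334 to 3574 CPM in HCl vehicle and 1906 to 2666 in norepinephrine samples, and 2227 to 3443 in DMSO vehicle and 1941 to 2890 in UK14,304 samples. Proliferation genes (Mki67, Top2a, Pcna, Mcm5, Ccna2) summed to 1720 to 1970, 1781 to 2018, 1729 to 1866 and 1868 to 2103 CPM in the same order, with median log2 fold changes of 0.03 and 0.06. Of these 5 genes, 2 were lower with each agonist, and 0 passed with or without the block. With UK14,304 all 4 enterocyte genes and 3 of 4 goblet cell genes were lower, with 1 goblet cell gene past the threshold with the block, and with norepinephrine 3 of 4 of each. Stem cell genes (Lgr5, Ascl2, Slc12a2, Axin2, Olfm4, Gkn3) were lower in 3 of 6 with each agonist, with medians of 0.02 and −0.01 and sums of 4352 to 5472, 4529 to 6271, 3933 to 6334 and 4820 to 6843 CPM in the same order. Enteroendocrine genes (Chga, Chgb, Tac1, Tph1, Neurog3) were lower in 1 of 5 with norepinephrine and 4 of 5 with UK14,304, with medians of 0.01 and −0.09. The 2 tested of 4 tuft cell genes (Dclk1, Trpm5, Gfi1b, Il25) were higher with both, with medians of 0.10 and 0.18, and sums of 27.1 to 37.3 CPM over all samples did not separate the groups. The part of cell composition in the ribosomal protein values was not tested.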

How the data were processed

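RNA was measured in 18 organoid samples of 5 mice. Per the labels and methods, the authors aligned single reads of 50 bp to GRCm38 with STAR 2.7.3 and counted exon reads per gene without strand, leaving out reads that mapped to several places or overlapped several genes. Methods name Subread 1.6.4, and the table header featureCounts 2.0.1 with Ensembl 102. The deposited values are raw counts for 55487 genes (55141 with a symbol), and 0 per-sample columns were left unused. Genes were tested with edgeR 4.0.16 in R 4.3.3 (TMM, filterByExpr by group, robust quasi-likelihood fit of the 4 groups, Benjamini-Hochberg over 15247 genes, adjusted p under 0.05). The summed share was tested with exact permutation and sign-flip tests. The code was tested on simulated data.

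Samples were paired by the number in their labels, and those with one number were taken to come from the same animal, which the labels do not spell out. Their deviations from the group means correlated at 0.119 to 0.520 within mice, and the mean with other mice was −0.151 to −0.0317. Alternatives were the mouse as a block, DESeq2 1.42.0, other scaling and filters, GC and length trends removed, the rRNA split, an agonist with its own vehicle, members with few copies, and leaving out samples. Members with at least 1000 counts, the lists with the block and samples left out for Rps12 and Rps10 were added after seeing the data. Members, lists and the rule for named genes were chosen with earlier results of these data known. That rule took members that passed, the 3 largest rises and falls per agonist, the 4 highest and lowest levels, the paralogue pairs, Rps12, Rps6, Rplp0, Rpsa and the ribosomal protein genes outside the member rule. Further genes that serve as examples, such as Rps2, Rpl15, Rpl41, Rps19 and Rps3, were chosen after their values were seen. Copies were searched in GENCODE M21 transcripts, so copies outside annotated transcripts were missed. Individual values of 2 genes are not reported here.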

Additional observations from a re-analysis of the deposited data

Results flagged for a closer look

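In 5 of 84 groups of 4 or 5 samples of the named members, 1 sample stood further from the others than Dixon's test allows at the 95% level, and chance flags about 1 in 20 groups. With norepinephrine, mouse 4 had 103 CPM of Rpl3 and the other samples 92.6 to 95.1. In HCl vehicle, mouse 4 had 2.40 CPM of Rpl38 and the others 3.17 to 3.32, and mouse 3 had 10.6 CPM of Rps12 and the others 11.7 to 12.0. In DMSO vehicle, mouse 4 had 1975 CPM of Rpl4 and the others 1891 to 1900, and mouse 3 had 7.37 CPM of Rpl5 and the others 5.55 to 5.79.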

How the results depend on the processing

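With norepinephrine the number of members called was 0 under all 27 alternatives other than leaving a mouse out of the fit with the block, and the difference between agonists stayed at 0 under all 14. With UK14,304 the count of 1 became 2 with no low count filter, with the mouse as a replicate block, with the GC trend removed, with the length trend removed and the block, with the rRNA split and the block, with DESeq2 without and with the block, and with the block at an adjusted p under 0.01. It became 4 with the block on UK14,304 and DMSO vehicle alone and 5 with the GC trend removed and the block. It became 0 without the block on those groups alone, at an adjusted p under 0.01, for members with at least 90% of windows without a copy (where neither Rps12 nor Rps10 is a member) and for those with at least 1000 counts (likewise), and 0 to 1 when single samples were left out. With the block, leaving out each mouse gave 0 to 20 members with norepinephrine and 0 to 9 with UK14,304. The share of all genes that passed with UK14,304 moved with the fit too. It was 0.0394% without the block, 1.22% with it and 3.83% with it and without mouse 4. For the other fits the share over all genes is not given, so their counts describe the fits and are not results about the members. Adding the mouse block to the fit of all 18 samples changed the call of Rps10 and of no other member, and on UK14,304 and DMSO vehicle alone it also changed that of Rps12 (adjusted p by edgeR 0.291 without and 0.00387 with the block). The median over members stayed between −0.07 and −0.02 with norepinephrine and between −0.11 and −0.05 with UK14,304 without mice left out of the block, and when each mouse was left out with the block it was −0.06 to −0.02 and −0.10 to −0.03, with −0.03 for UK14,304 without mouse 4. Members with few counts limit precision, and unique mapping leaves genes with copies partly counted. The causes of these changes were not tested.

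Small estimates changed sign. With UK14,304, Rpl22l1 became −0.0414 with the GC trend removed, −0.0392 with the block as well and −0.0147 with the rRNA split and block. Rpl4 became 0.0096 with the length trend removed and 0.0170 with the block as well, and Rps3a1 became 0.0240 and 0.0104, and with norepinephrine 0.0357 and 0.0228. Rps27 became −0.0270 with the block on its own groups, and Rps6 became 0.0336 with the rRNA split and block. Rps27l became −0.0618 and −0.0652 with the GC trend removed without and with the block, and with norepinephrine −0.080 and −0.083, and −0.0024 with the block on its own groups. Rpsa became 0.0095 with the block, 0.027 and 0.055 with the GC trend removed without and with it, 0.0011 and 0.028 with the length trend removed, 0.012 with DESeq2 and the block, and 0.027 with the rRNA split and block. Rpl7l1 with norepinephrine became 0.0026 with DESeq2 size factors, with the block and with DESeq2, 0.0027 on its own groups, 0.0088 with no filter, 0.0013 with at least 10 counts, 0.0090 with the block on its own groups, 0.0076 and 0.010 with the GC trend removed, 0.016 and 0.018 with the length trend removed, 0.0052 with DESeq2 and the block, and 0.0037 with the rRNA split and block.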
